A study of Mus musculus with 10 samples.

Results

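Neutrophil genes were followed in macrophages sorted from 4T1 tumours with or without podoplanin (PDPN) on their surface. The set holds 8 of the 46603 genes in the count table. It comprises Retnlg, G0s2, S100a8, S100a9, Lcn2 and Ly6g, which encode secreted, cytosolic, granule and surface proteins, and the receptor genes Csf3r and Cxcr2. They were chosen by name as genes of neutrophil granules, S100 proteins and receptors, with earlier results of these data known. Each name was found once. The tested fraction, called PoEMs by the submitters, was sorted as viable CD11B+ F4/80+ PDPN+ cells, and its counterpart, non-PoEMs, as viable CD11B+ F4/80+ PDPN- cells. The 10 libraries are a PoEM and a non-PoEM library of each of 5 tumours, which carry the numbers 1, 2, 4, 5 and 6. 4T1 cells are an established line of mouse mammary carcinoma and grow into tumours on grafting. All groups share this tumour model and no other treatment is labelled. The strain, sex and age of the mice, the grafting site and whether each tumour came from a separate mouse are not stated in the labels. With the tumour as block, the p-values therefore measure how the difference between fractions varies over these tumours. That variation may be partly technical.

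Neutrophils are short-lived granulocytes of the bone marrow. The cytokine G-CSF, encoded by Csf3, drives their production through its receptor CSF3R, and chemokines that bind CXCR2 draw them out of the marrow and into tissue. Their cytosol is packed with the calcium-binding pair S100A8 and S100A9, and their granules store antimicrobial proteins such as lipocalin 2. 4T1 tumours are known for secreting G-CSF and for expanding granulocytes in their hosts. Mature mouse neutrophils carry CD11B but little F4/80, so the gate used here selects against them. Several of these genes are also used outside neutrophils. Monocytes express S100a8, S100a9 and Csf3r, and epithelial cells can express Lcn2.

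The stretches upstream of 3 of the genes are shown because Retnlg and G0s2 had the largest differences and S100a9 was the more abundant of the S100 pair. Each runs 5′ to 3′ on the gene's own strand from 250 to 31 bases before the RefSeq start, in GRCm38.p6. Capitals mark matches to TTNNGNAA or its reverse complement TTNCNNAA, the core bound by C/EBP factors, which are regulators of granulocyte genes.
Retnlg, chr16:48872358-48872577, plus strand: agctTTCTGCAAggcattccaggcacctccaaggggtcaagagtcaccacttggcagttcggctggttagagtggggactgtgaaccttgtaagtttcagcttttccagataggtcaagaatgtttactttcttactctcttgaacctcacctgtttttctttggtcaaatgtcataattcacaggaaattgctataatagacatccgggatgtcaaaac
G0s2, chr1:193273219-193273438, minus strand: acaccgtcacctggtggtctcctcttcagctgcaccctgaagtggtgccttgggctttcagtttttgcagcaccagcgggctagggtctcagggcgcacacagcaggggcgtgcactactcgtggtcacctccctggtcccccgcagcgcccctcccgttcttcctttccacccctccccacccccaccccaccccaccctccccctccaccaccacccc
S100a9, chr3:90695752-90695971, minus strand: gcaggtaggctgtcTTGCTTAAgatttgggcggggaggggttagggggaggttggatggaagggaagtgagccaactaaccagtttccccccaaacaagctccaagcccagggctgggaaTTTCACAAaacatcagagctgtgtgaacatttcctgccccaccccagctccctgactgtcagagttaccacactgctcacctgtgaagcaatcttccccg
Such a match was found in the same window of 5 of the 8 genes (Lcn2, Ly6g, Retnlg, S100a8 and S100a9), and in 34.2% of all 32851 RefSeq promoter windows of that length. The letters GAGGAA, part of a PU.1 site, or their reverse complement TTCCTC were found in 4 of the 8 genes (Csf3r, Cxcr2, Ly6g and S100a8), against 20.4% of all windows, and the motifs can overlap. A gene was counted if any of its RefSeq windows held a match, whereas the percentages are shares of single windows. A match describes the letters only.

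In outline, 7 of the 8 genes fell in PoEMs and Ly6g was too sparse to be tested. Retnlg and G0s2 were lower by more than an order of magnitude, while S100a8, S100a9, Cxcr2 and Lcn2 were between 2.49-fold and 3.03-fold lower and Csf3r was 1.696-fold lower. All 7 tested genes were called lower in the edgeR quasi-likelihood fit with the tumour as block, where 28.2% of the 13595 genes tested were called, 14.3% lower and 13.8% higher. All 7 were also called lower without the block, where 6.77% of all genes were. Each was lower in the PoEMs of 5 of 5 tumours. The genes were chosen with earlier results of these data known, and a gene passes the filter on low counts if 1 fraction alone reaches it. The count of 7 therefore describes these genes and no more. The median log2 fold change of the 7 was -1.41, beside 0.01 over all genes tested. In such bulk libraries, fewer cells of a type and less RNA per cell cannot be told apart.

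**Figure D1:**
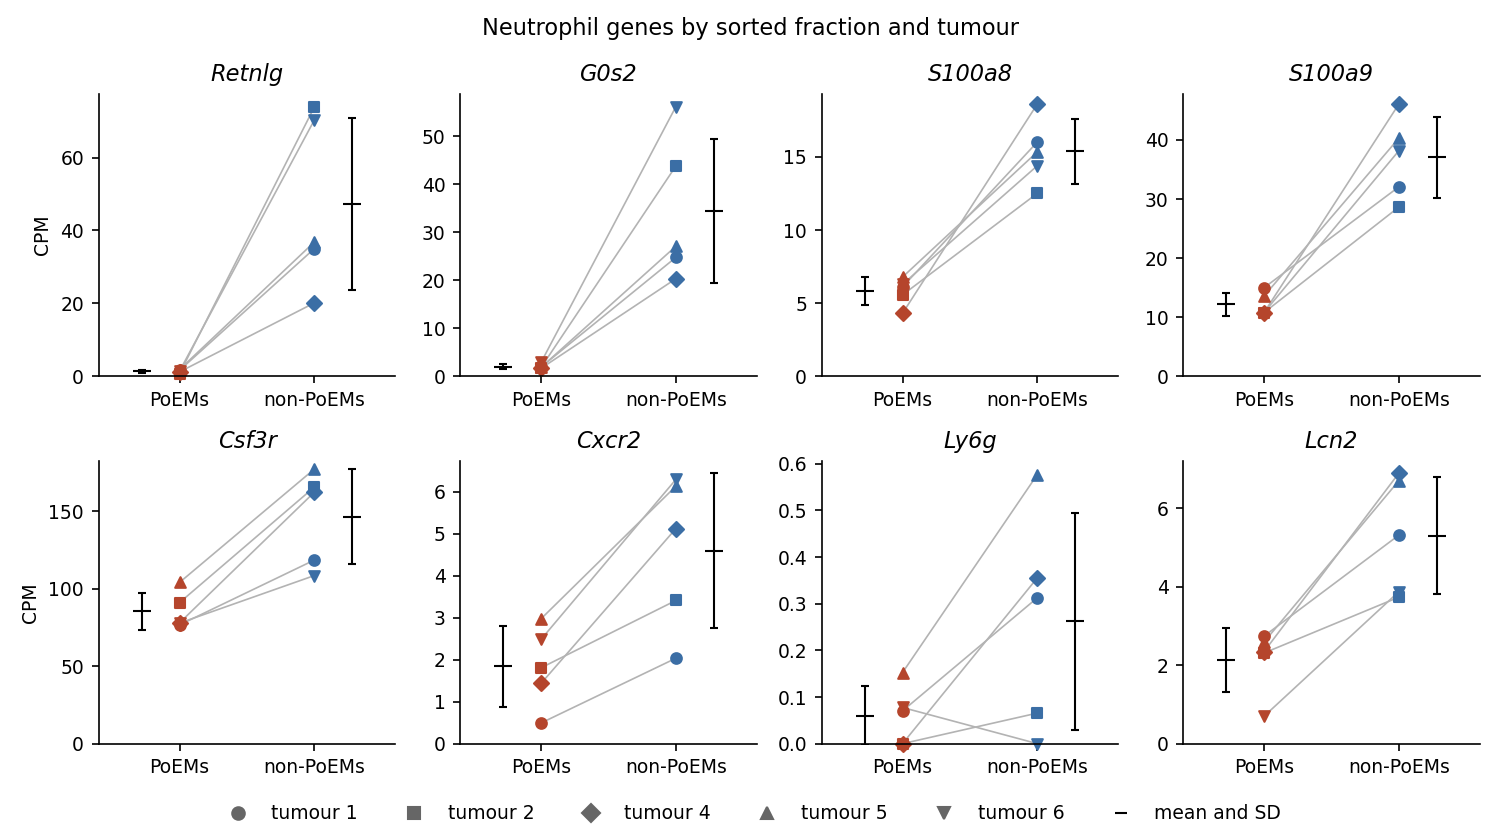
Level of each of the 8 genes in CPM (vertical axis, starting at 0, scaled per gene) in PoEMs (red, left) and non-PoEMs (blue, right), with the 2 libraries of a tumour joined by a line and the mean and SD over 5 libraries beside them. All lines rise to the right except that of Ly6g in tumour 6, and the fractions overlap for Cxcr2 and Ly6g.

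Library totals ran from 12597829 to 15406722 counts, so 1 count stood for 0.0649 to 0.0794 CPM (counts scaled to library totals by TMM factors). Pdpn, the gene behind the sort, was higher in PoEMs by 3.52 ± 0.26 on the log2 scale (SE, edgeR adjusted p = 0.000933). Macrophage markers were high in both fractions, and Apoe, C1qa and C1qc were the most abundant. The 11 listed markers summed to 29263 to 33197 CPM in PoEMs and to 30148 to 35587 CPM in non-PoEMs. Of them, 3 were higher and 3 lower (1 and 1 without the block). The F4/80 gene Adgre1 was not called (log2 fold change -0.13 ± 0.11, SE; edgeR adjusted p = 0.479).

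Retnlg (ENSMUSG00000022651, chromosome 16, 48872621 to 48874496 in GRCm38, plus strand, 4 exon blocks) encodes a resistin-like protein that mouse neutrophils secrete. In tumours 1, 2, 4, 5 and 6 it measured 1.62, 0.722, 1.17, 1.83 and 1.396 CPM in PoEMs. The non-PoEMs of the same tumours had 35.03, 73.9, 20.1, 36.8 and 70.3 CPM. Every PoEM library lay far below every non-PoEM library, with 10 to 24 counts against 283 to 1128 counts. The fitted log2 fold change was -5.05 ± 0.31 (SE, edgeR adjusted p = 0.000156), a 33.2-fold difference and rank 6 of 13595 from the most negative. The highest non-PoEM library exceeded the lowest 3.67 times, and tumours 2 and 6 stood above the other 3.

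G0s2 (ENSMUSG00000009633, chromosome 1, 193272161 to 193273217, minus strand) encodes an inhibitor of the triglyceride lipase ATGL and is abundant in neutrophils. Its levels in tumours 1, 2, 4, 5 and 6 were 1.897, 1.81, 1.63, 1.83 and 2.87 CPM in PoEMs. In non-PoEMs they were 24.8, 43.8, 20.3, 27.1 and 56.2 CPM. The fractions did not overlap, and tumours 2 and 6 again had the highest non-PoEM levels. The fitted log2 fold change was -4.06 ± 0.12 (SE, edgeR adjusted p = 2.22e-10), a 16.7-fold difference and rank 10 from the most negative. Pnpla2, which encodes ATGL, differed by -0.13 ± 0.05 on the log2 scale (SE, edgeR adjusted p = 0.0696). Hilpda, which encodes another ATGL inhibitor, moved the opposite way to G0s2, at 208.6 ± 27.01 CPM in PoEMs and 79.09 ± 20.7 CPM in non-PoEMs (SD, n = 5 each, edgeR adjusted p = 4.91e-05).

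S100a8 (ENSMUSG00000056054, chromosome 3, 90668978 to 90670035, plus strand) and S100a9 (ENSMUSG00000056071, chromosome 3, 90692632 to 90695721, minus strand) lie close together and encode the 2 chains of calprotectin. S100a8 measured 6.11, 5.56, 4.301, 6.78 and 6.28 CPM in the PoEMs of tumours 1, 2, 4, 5 and 6, and 16.03, 12.5, 18.6, 15.4 and 14.4 CPM in their non-PoEMs. S100a9 measured 14.97, 10.8, 10.8, 13.6 and 10.8 CPM in PoEMs, and 32.1, 28.6, 46.1, 40.3 and 38.2 CPM in non-PoEMs. For both genes the fractions were apart, and tumour 4 had the highest non-PoEM level. In PoEMs, S100a9 was nearly the same in tumours 2, 4 and 6. The fitted log2 fold changes were -1.41 ± 0.13 for S100a8 and -1.60 ± 0.13 for S100a9 (SE, edgeR adjusted p = 5.82e-06 and 2.42e-05). Per kilobase of exon, S100a9 was 2.82 ± 0.453 times as abundant as S100a8 in PoEMs and 3.20 ± 0.358 times in non-PoEMs (SD, n = 5 each), ranges that overlap.

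Lcn2 (ENSMUSG00000026822, chromosome 2, 32384633 to 32388252, minus strand) encodes lipocalin 2, a granule protein that withholds iron from bacteria by binding their siderophores. It measured 2.74, 2.31, 2.35, 2.59 and 0.698 CPM in the PoEMs of tumours 1, 2, 4, 5 and 6, and 5.32, 3.74, 6.896, 6.705 and 3.88 CPM in their non-PoEMs. The fractions did not overlap, and PoEMs of tumour 6, with 9 counts, lay below the other PoEM libraries. The fitted log2 fold change was -1.31 ± 0.20 (SE, edgeR adjusted p = 0.000214). Epithelial and tumour cell markers were measured in the same libraries. Of 9 tested, 2 were lower and 1, Cdh1, was higher, none of them without the block. The sum of all 10 was 100.5 to 265.8 CPM in PoEMs and 85.6 to 217.9 CPM in non-PoEMs, with none at 0. This sum rested mostly on Cdh1, at 124.0 ± 65.1 CPM in PoEMs and 75.9 ± 46.8 CPM in non-PoEMs (SD, n = 5 each). The part of these markers in the level of Lcn2 was not tested.

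The receptor gene Csf3r (ENSMUSG00000028859, chromosome 4, 126024550 to 126044440, plus strand, 17 exon blocks) was the most abundant of the set by counts. It measured 76.6, 90.99, 77.9, 104.01 and 77.8 CPM in the PoEMs of tumours 1, 2, 4, 5 and 6. In their non-PoEMs it measured 118.4, 165.5, 162.2, 177.1 and 108.4 CPM. The highest PoEM library, tumour 5, lay just under the lowest non-PoEM library, tumour 6. The fitted log2 fold change was -0.76 ± 0.07 (SE, edgeR adjusted p = 1.72e-05). Of the distinct 50-base stretches of the Csf3r transcripts in GENCODE M21, 10.7% also occur in transcripts of other genes, as do 6.68% for Cxcr2 and 0.448% for Ly6g, so these counts carry some uncertainty. The other 5 genes share none.

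Cxcr2 (ENSMUSG00000026180, chromosome 1, 74153989 to 74161246, plus strand) encodes the receptor for neutrophil-attracting CXC chemokines. It measured 0.492, 1.81, 1.43, 2.97 and 2.48 CPM in the PoEMs of tumours 1, 2, 4, 5 and 6, and 2.03, 3.41, 5.12, 6.13 and 6.29 CPM in their non-PoEMs. The fractions overlapped, since tumour 1 was lowest in both, but within each tumour the PoEM library was lower. The log2 fold change was -1.34 ± 0.18 (SE, edgeR adjusted p = 0.000101). Without the tumour as a block the adjusted p was 0.04999, at the edge of the threshold.

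Ly6g (ENSMUSG00000022582, chromosome 15, 75155240 to 75159126, plus strand) encodes the surface antigen by which mouse neutrophils are usually recognised. It had 1, 0, 0, 2 and 1 counts in the PoEMs of tumours 1, 2, 4, 5 and 6, and 4, 1, 5, 8 and 0 counts in their non-PoEMs. A library with 0 counts allows up to 3 counts, which is 0.217 and 0.196 CPM in the PoEMs of tumours 2 and 4 and 0.219 CPM in the non-PoEMs of tumour 6. The level was lower in PoEMs in 4 of 5 tumours, with a mean difference of -0.20 CPM, which did not pass an exact paired permutation test (two-sided p = 0.188, where 5 pairs allow no less than 0.0625). With 5 pairs this test could not have passed the threshold, so it leaves a difference in Ly6g undecided.

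Levels were compared between genes per kilobase of exon, as means ± SD over 5 libraries. In PoEMs the order from the top was Csf3r (23.7 ± 3.304 CPM per kilobase), S100a9 (23.3 ± 3.79), S100a8 (8.37 ± 1.37), G0s2 (2.303 ± 0.566), Retnlg (2.27 ± 0.719), Lcn2 (0.815 ± 0.314), Cxcr2 (0.603 ± 0.315) and Ly6g (0.0637 ± 0.0675). In non-PoEMs it was Retnlg (79.7 ± 39.9 CPM per kilobase), S100a9 (70.97 ± 13.2), Csf3r (40.6 ± 8.52), G0s2 (39.6 ± 17.3), S100a8 (22.2 ± 3.23), Lcn2 (2.02 ± 0.572), Cxcr2 (1.51 ± 0.602) and Ly6g (0.278 ± 0.248). The order of means was not that of every library. S100a9 exceeded Retnlg in the non-PoEMs of tumour 1 (61.4 and 59.1 CPM per kilobase), tumour 4 (88.3 and 33.9) and tumour 5 (77.2 and 62.1), and Retnlg exceeded S100a9 in those of tumours 2 and 6. The neighbours Csf3r and S100a9, G0s2 and Retnlg, and Lcn2 and Cxcr2 in PoEMs lay within their SDs of each other, as did Retnlg and S100a9, Csf3r and G0s2, and Lcn2 and Cxcr2 in non-PoEMs.

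**Figure D2:**
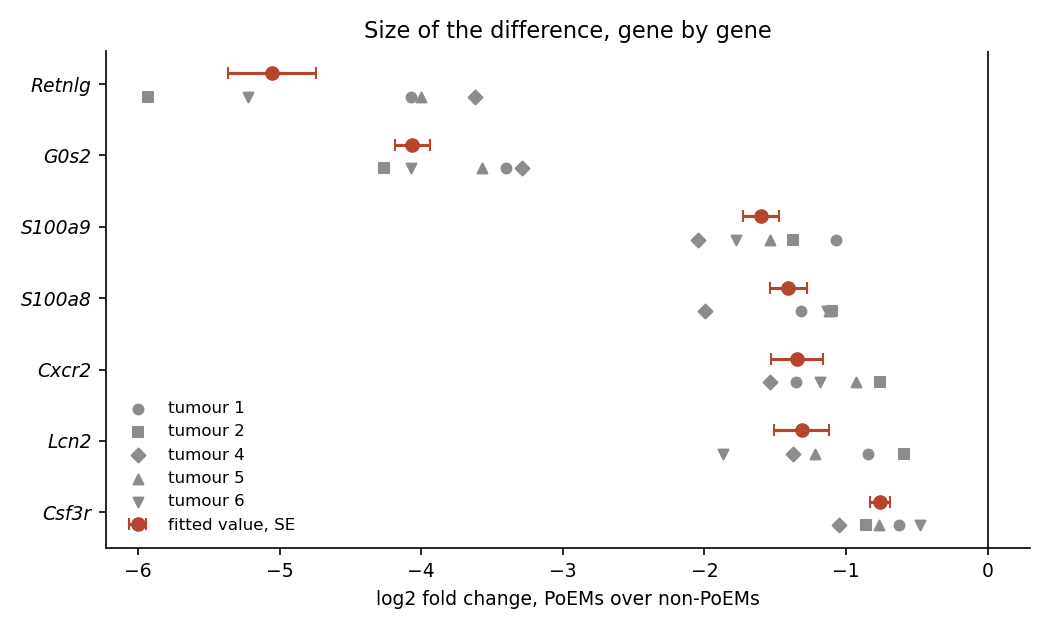
Log2 fold change of PoEMs over non-PoEMs (horizontal axis) for the 7 tested genes. Red points are fitted values with their SE, and grey symbols are the 5 tumours, each from log2(CPM + 0.5). The tumours of Retnlg and G0s2 lie at -3.29 or lower, and those of the other genes at -2.05 or higher.

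The size of the difference varied between genes. Within tumours, the log2 ratio of PoEMs to non-PoEMs on the log2(CPM + 0.5) scale ran from -5.93 to -3.62 for Retnlg and from -4.27 to -3.29 for G0s2. For S100a8 it ran from -1.99 to -1.10, for S100a9 from -2.05 to -1.07 and for Csf3r from -1.05 to -0.48. The ratio of Retnlg was below that of G0s2 in 5 of 5 tumours, with a mean difference of -0.85 ± 0.55 (SD, n = 5), and that of G0s2 was below that of S100a9 in 5 of 5, with -2.16 ± 0.60. Among the 21 pairs of genes, 13 differed in the same direction in all 5 tumours. None passed the exact paired permutation test after adjustment (two-sided, smallest p 0.0625 and adjusted p = 0.101), since 5 pairs allow no less than 0.0625.

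Tumours ranked differently for different genes of the set. In non-PoEMs, tumour 4 was lowest for Retnlg and G0s2 and highest for S100a8, S100a9 and Lcn2. Tumour 2, the highest for Retnlg, was lowest for S100a8, S100a9 and Lcn2. Relative to its mean, the SD over the 5 non-PoEM libraries was 50.1% for Retnlg and 43.8% for G0s2, against 14.6% for S100a8 and 18.5% for S100a9. No correlation is given over 5 libraries.

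**Figure D3:**
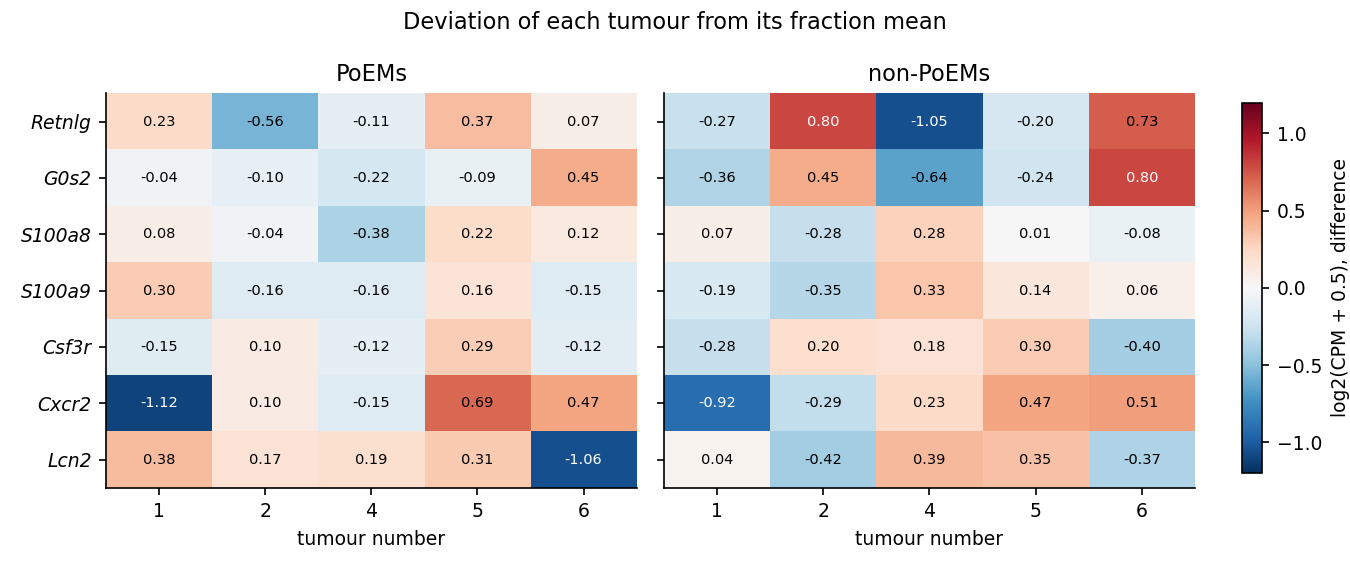
Deviation of each tumour from the mean of its fraction, as a difference of log2(CPM + 0.5), for the 7 tested genes (rows) in PoEMs (left) and non-PoEMs (right). In non-PoEMs, Retnlg and G0s2 are red in tumours 2 and 6 and blue in tumour 4, where S100a8, S100a9 and Lcn2 are red.

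Other neutrophil genes moved both ways. Of 94 further genes in 4 lists of granule, receptor, cytosolic and nuclear genes, 75 were tested, with a median log2 fold change of -0.15. Of these, 31 (41.3%) were lower, 17 (22.7%) higher and 27 not called, beside 14.3% lower and 13.8% higher over all genes tested. Fewer were called without the block, as given list by list below. Many of them, such as Lyz2 and Il1b, are also macrophage genes. A narrower list of 19 markers that are more typical of neutrophils had 12 tested, of which 8 were lower and 2, Mmp8 and Trem1, higher (7 and 1 without the block), with a median of -1.45. Its sum was alike in the fractions, at 370.2 to 455.95 CPM in PoEMs and 332.3 to 518.04 CPM in non-PoEMs, and rested mostly on Trem1 and Il1r2.

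Primary granule genes, which are transcribed in marrow precursors, were scarce. Mpo and Elane had 6 counts each over all PoEM libraries, and 9 and 4 counts over all non-PoEM libraries. Prtn3, the only 1 of 7 tested, measured 4.61 ± 1.31 CPM in PoEMs and 4.29 ± 1.11 CPM in non-PoEMs (SD, n = 5 each, edgeR adjusted p = 0.685).

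Secondary and tertiary granule genes split, with 6 lower and 6 higher of 16 tested (5 and 3 without the block). Pglyrp1, which encodes a bactericidal peptidoglycan-binding protein, measured 0.607 ± 0.221 CPM in PoEMs and 8.44 ± 2.69 CPM in non-PoEMs (SD, n = 5 each). Its log2 fold change was -3.75 ± 0.23 (SE, edgeR adjusted p = 1.11e-07). Hp, the haptoglobin gene, was 2.52-fold lower. Ltf, Ngp and Cd177, all typical of late granulocyte stages, fell by 1.68, 2.03 and 1.85 on the log2 scale. Camp was below the filter, with 6 counts in PoEMs and 20 in non-PoEMs. In the other direction, the collagenase gene Mmp8 was 2.596-fold higher, at 17.5 ± 3.39 CPM in PoEMs and 6.83 ± 2.19 CPM in non-PoEMs, and the gelatinase gene Mmp9 was 1.93-fold higher, a call lost without the block (edgeR adjusted p = 0.125). Arg1, which tumour macrophages express as well, was 2.94-fold higher.

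Among receptor genes, 10 of 25 tested were lower and 4 higher (5 and 1 without the block). Pirb and Siglece, which encode inhibitory receptors, were 1.85-fold and 1.79-fold lower, and Clec4e, a sensor of mycobacterial glycolipid, 1.43-fold lower. Fpr2, a formyl peptide receptor gene, fell by 0.62 on the log2 scale, a call lost without the block (edgeR adjusted p = 0.0647). Clec5a was 1.53-fold higher. Mrgpra2b had 1 count over all PoEM libraries and 6 over all non-PoEM libraries, and Cxcr1 had 4 and 3.

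Of 33 cytosolic and nuclear genes tested, 15 were lower and 7 higher (5 and 2 without the block). Hdc, which encodes the enzyme that makes histamine, measured 5.07 ± 1.34 CPM in PoEMs and 22.8 ± 7.24 CPM in non-PoEMs (SD, n = 5 each), and its log2 fold change was -2.15 ± 0.11 (SE, edgeR adjusted p = 1.33e-08). Stfa2l1 and Asprv1 fell by 1.49 and 1.58 on the log2 scale from low levels. Mxd1, a MYC antagonist gene, was 1.78-fold lower, and Hcar2, a receptor gene for niacin, 1.37-fold higher. Cebpb, which encodes a C/EBP factor, was 1.17-fold lower, a call lost without the block (edgeR adjusted p = 0.195).

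**Figure D4:**
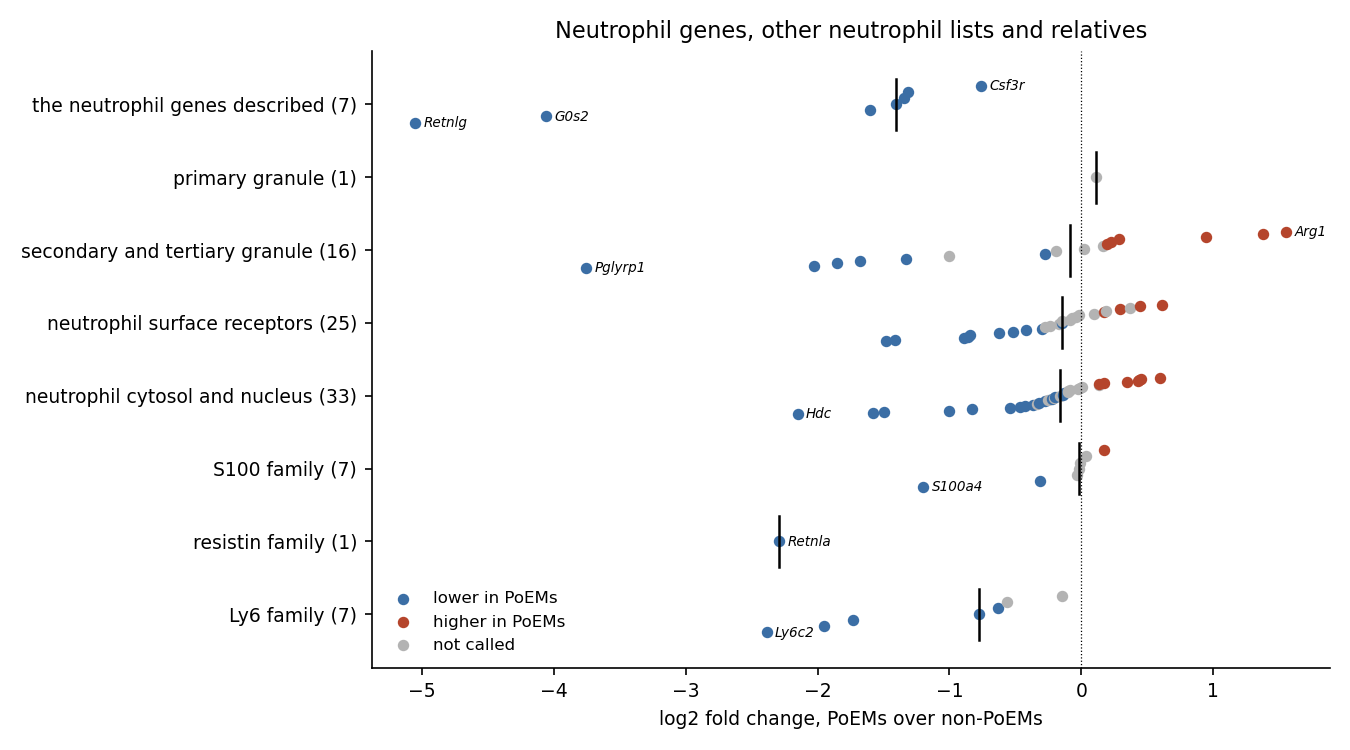
Log2 fold change of PoEMs over non-PoEMs (horizontal axis) for tested genes of each list (rows, number tested in brackets), blue where called lower, red where called higher and grey where not called, with the list median as a black bar. The 7 tested genes described here lie left of 0, while the granule, receptor and cytosolic lists spread to both sides.

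Close relatives of the genes did not share their differences uniformly. In the S100 family, 7 of 16 were tested and 2 were lower and 1 higher (1 and 0 without the block). S100a4 measured 6.698 ± 1.21 CPM in PoEMs and 15.4 ± 2.79 CPM in non-PoEMs (SD, n = 5 each, edgeR adjusted p = 1.3e-06). S100a6 was lower and S100a10 higher, by -0.31 ± 0.07 and 0.17 ± 0.05 on the log2 scale (SE, edgeR adjusted p = 0.00312 and 0.024). Both calls were lost without the block (edgeR adjusted p = 0.245 and 0.464). S100a11 and S100a13 differed by 0.03 ± 0.05 and -0.03 ± 0.07 on the log2 scale (SE, edgeR adjusted p = 0.635 and 0.791). Of the resistin family, Retnla, which macrophages and eosinophils express under interleukin 4, measured 10.9 ± 7.01 CPM in PoEMs and 51.5 ± 27.9 CPM in non-PoEMs (SD, n = 5 each), with a fitted log2 difference of -2.29 ± 0.17 (SE, edgeR adjusted p = 0.000123). Retn had 3 counts over all PoEM libraries and 6 over all non-PoEM libraries, and Retnlb had 0 in every library. In the Ly6 family, 5 of 7 tested genes were lower and none higher (2 lower without the block). The monocyte antigen genes Ly6c2 and Ly6c1 were 5.23-fold and 3.87-fold lower.

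Of 19 tested ligands and partners of the gene products, 3 were lower, 6 higher and 10 not called (2 lower and 5 higher without the block). Csf3, which encodes the ligand of CSF3R, was lower, with 2.24 ± 0.786 CPM in PoEMs and 4.41 ± 0.584 CPM in non-PoEMs (SD, n = 5 each, edgeR adjusted p = 0.00142). Socs3, a feedback inhibitor of the G-CSF receptor, was 1.35-fold lower, and Stat3, a signal transducer of that receptor, was the other lower one. Among CXC chemokine genes, Cxcl3 and Ppbp, whose products bind CXCR2, were 3.69-fold and 5.59-fold higher, as was Pf4 by 2.38-fold. The more abundant CXCR2 ligand genes Cxcl1 and Cxcl2 were not called (edgeR adjusted p = 0.467 and 0.0607). Cxcl1 measured 164.3 ± 30.97 CPM in PoEMs and 149.6 ± 21.4 CPM in non-PoEMs, and Cxcl2 575.5 ± 74.98 and 643.5 ± 70.7 CPM (SD, n = 5 each). Bsg and Tlr4, which encode receptors proposed for S100A9 and for calprotectin, were higher by 0.41 and 0.17 on the log2 scale (edgeR adjusted p = 2.8e-05 and 0.0253, the second lost without the block at 0.121).

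Markers of other cell types moved in the same libraries, and their part in the values above was not tested. Mouse eosinophils and monocytes can carry both CD11B and F4/80, whereas gating on these 2 antigens selects against fibroblasts and T cells. That part of the gate is shared by both fractions, which differ in PDPN. Eosinophil markers were lower for 5 of 6 tested (4 without the block). The 10 markers summed to 15.05 to 27.7 CPM in PoEMs and 67.7 to 160.2 CPM in non-PoEMs. Prg2, Epx, Ear1 and Ear6 had 0 counts in every PoEM library. In the non-PoEMs of tumours 1, 2, 4, 5 and 6 the eosinophil sum was 72.8, 160.2, 67.7, 112.3 and 110.6 CPM, lowest in tumour 4 and highest in tumour 2. Of the genes of the set in these libraries, Retnlg had the same extremes, G0s2 was lowest in tumour 4 and highest in tumour 6, and S100a8, S100a9 and Lcn2 were lowest in tumour 2 and highest in tumour 4. The fibroblast sum was also lowest in tumour 4 (29.2 CPM) and highest in tumour 2 (41.6 CPM). The mast cell and basophil sum and the T and NK cell sum were highest in tumour 2 too, and the sum of other neutrophil markers was lowest in tumour 4. No link between these orders was tested. Monocyte markers were lower for 8 of 13 and higher for 1, Fn1 (6 and 1 without the block). With Fn1 the most abundant by far, their sum was 13450 to 19609 CPM in PoEMs and 8946 to 11759 CPM in non-PoEMs, with none at 0. Mast cell and basophil markers summed to 1.56 to 3.97 CPM in PoEMs, with Fcer1a, Ms4a2 and Prss34 at 0, and to 5.24 to 14.5 CPM in non-PoEMs, and both tested ones (Kit and Gata2) were lower, Kit not without the block (edgeR adjusted p = 0.163). Fibroblast markers were higher for 9 of 10, at 288.7 to 472.5 CPM in PoEMs and 29.2 to 41.6 CPM in non-PoEMs. T and NK cell markers summed to 10.7 to 19.9 CPM in PoEMs and 16.7 to 49.8 CPM in non-PoEMs, and of 2 tested, Cd4 was lower.

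The genes outside the set whose pattern over the 10 libraries was most like its mean were Junb, Dazap2, Mat2a, Gadd45b, Jarid2, Il5ra, F730016J06Rik, Sytl1, Pglyrp1 and Msl2. Likeness was Pearson's r with the mean of the standardised log2(CPM + 0.5) of the 7 tested genes, and it ran from 0.966 for Msl2 to 0.981 for Junb. The 10 libraries fall into 2 fractions, so r follows mainly the difference between them. All 10 genes were lower in the PoEMs of 5 of 5 tumours. Their sizes varied, with a log2 fold change of -0.27 for Dazap2 and -3.75 for Pglyrp1, while Il5ra, the eosinophil receptor gene for interleukin 5, had 4 counts over all PoEM libraries and 249 over all non-PoEM libraries.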

How the data were processed

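The members and lists were chosen with earlier results of these data known. Raw counts per gene for 10 libraries were deposited by the authors, whole numbers with 12597829 to 15406722 counts per library. The submitters' processing notes name featureCounts 1.5.3, STAR 2.5.2b, Bowtie2 2.3.3.1 and cutadapt 1.15. Settings, genome build, strand setting and the handling of reads with several matches are not stated there. RNA was pre-amplified with SMART-Seq, per the labels' protocols, without molecular identifiers being mentioned, so counts are reads and floors cover counting error only.

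Columns were matched to samples by title. Tests on the deposited counts used edgeR 4.0.16 (R 4.3.3). The filter filterByExpr, run by fraction with a minimum count of 10 and a minimum total of 15, left 13595 of 46603 genes. Libraries were scaled by TMM. A robust quasi-likelihood model with tumour as block and sorted fraction as the tested term was fitted, and calls were made below 0.05 after Benjamini-Hochberg adjustment over all genes tested. The block was used because both fractions of a tumour carry its number in the labels. Deviations from fraction means correlated within tumours over the tested genes, with r of 0.249 to 0.528. Among the non-PoEM libraries, each PoEM library correlated best with that of its own tumour. SEs are the size of the log2 fold change over the root of the quasi-likelihood F. The biological coefficient of variation was 7.55%. CPM are the counts scaled by the TMM library size. The fit was tested on simulated data. Far fewer genes were changed there than were called here, so that check does not give the error rate on these data.

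Picked for naming were all 8 genes, up to 5 genes of each list by lowest p and up to 2 by highest level. Up to 3 markers of each cell type by level and the 10 genes most alike in pattern were added. Some genes picked this way are not mentioned in the text. Ltf, Ngp, Cd177, Stfa2l1, Asprv1, Mpo, Elane, Camp, Mrgpra2b, Cxcr1, Adgre1, Pdpn, Prg2, Epx, Ear1, Ear6, Fcer1a, Ms4a2, Prss34, Csf3, Cxcl1, Cxcl2, Tlr4, Hilpda, Pnpla2, Stat3 and Retnlb were named after their values were seen. Of the listed symbols, 2 of the Ly6 family were not matched. Alternatives were a fit without the block, other scalings, no filter, DESeq2 1.42.0, and leaving out each tumour.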

Additional observations from a re-analysis of the deposited data

Results flagged for a closer look

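In each fraction of 5 libraries, a library was singled out when its gap to the nearest other library exceeded 0.71 of the range. This was examined for the 8 genes and 8 marker sums, 32 groups in all, and chance gives such a library in about 1 group in 20. Of the 4 found, 2 were genes of the set, both in PoEMs of tumour 6. G0s2 was highest there at 2.87 CPM, above 1.63 to 1.897 CPM in the other PoEM libraries, and Lcn2 was lowest at 0.698 CPM, below 2.31 to 2.74 CPM. The other two were marker sums in non-PoEMs. Epithelial and tumour cell markers reached 217.9 CPM in tumour 6, above 85.6 to 120.2 CPM, and T and NK cell markers reached 49.8 CPM in tumour 2, above 16.7 to 25.9 CPM. Cdh1, the most abundant of the epithelial and tumour cell markers, reached at most 156.9 CPM in non-PoEMs.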

How the results depend on the processing

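The 7 calls among the neutrophil genes held in all 10 alternatives (no replicate block, DESeq2 size factors, library size alone, no filter on low counts, the DESeq2 test, and each tumour left out), and no direction changed. The log2 fold change ranged from -5.25 to -4.68 for Retnlg and from -0.83 to -0.69 for Csf3r, and the highest adjusted p was 0.04999 for Cxcr2, without the replicate block. Without the block, the genes called over the whole table were 920 lower and 929 higher (1950 and 1880 with it), and those of the fixed lists 20 lower and 11 higher (41 and 24 with it). The DESeq2 test called 1219 genes higher, and the cause was not tested. With each tumour left out, all genes called ranged from 1380 to 2016 lower and from 1360 to 1925 higher, those of the fixed lists from 33 to 45 lower and 20 to 23 higher, and the neutrophil genes stayed at 7 lower and 0 higher. A lone library adds nothing to a block, so both libraries of a tumour were left out together. For Ly6g, the exact p was 0.188 on the log2 scale and 0.143 without the replicate block. Unfiltered, its edgeR p was 0.0389, adjusted p 0.167. Low counts kept Ly6g and 6 of the 7 primary granule genes out of the fit.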
